A study of Homo sapiens with 10 samples.

Results

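4-Thiouridine (4SU) feeding followed by 365 nm crosslinking was examined in 4 of the 10 libraries of the series. All come from HEK293, an established human embryonic kidney cell line. In both groups the cells had received 1 mM 4SU in the medium for 12 to 14 h, so 4SU itself is shared by the compared samples. The group 4SU_365XL (libraries A and B) was then irradiated with 365 nm ultraviolet light before harvest, and the group 4SU_NOXL (libraries A and B) was harvested without crosslinking. A second pair of groups without 4SU served for comparison, NO4SU_254XL (254 nm light, libraries A and B) and NO4SU_NOXL (neither treatment, libraries A and B). Whether A and B are separate cultures is not said in the labels, and the p-values measure only how far these samples spread, which may be technical. The members are all features with enough tags to test, 13731 of the 23870 present in the 8 libraries of the 4 groups. Of these, 11201 carry a current gene symbol, and all are called genes hereafter.

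4SU is a uridine analogue that cells take up and build into new RNA in place of uridine. Under 365 nm light the incorporated base forms covalent bonds with amino acids of proteins in contact with the RNA, whereas 254 nm light crosslinks the unmodified bases. Both treatments are used to fix RNA-binding proteins on their targets before immunoprecipitation, and the question here is what the 365 nm step does to the mRNA profile read from the same cells.

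The 4SU_365XL libraries held 2402450 and 2869446 tags and the 4SU_NOXL libraries 2289523 and 3053932. On the scale of library totals, 3 tags correspond to 0.982 to 1.31 counts per 1000000 tags (CPM). Normalised CPM, used for single genes below, are CPM of the library total divided by the scaling factor (TMM) of the library. The factors of libraries A and B were 0.3715 and 0.4997 after crosslinking and 1.549 and 1.755 without it. In normalised CPM, 3 tags therefore stand higher in the crosslinked libraries than in the others. Transcripts with a tag numbered 16491 and 17330 after crosslinking, against 20424 and 21472 without it. The top 10 transcripts held 12.3% and 8.91% of tags with crosslinking, against 3.98% and 2.83%. The 11 markers of HEK293 cells each had a tag in at least 1 of the 4 libraries. Their summed level was 188 and 314 CPM of the library total after crosslinking and 463 and 592 without it. The neurofilament gene NEFL had 271 to 880 tags and VIM had 14 to 23, whereas LHX1 had 0 to 2 and PAX2 0 to 19. Of 14 markers of other cell types, 8 had a tag, with sums of 28.7 and 40.8 against 21.8 and 36.0. Most of that sum was COL1A1, which is also counted among the collagens below. PTPRC had at most 1 tag, HBA1 had 7 and 12 tags after crosslinking and 0 without it, and CD3E, HBB, ALB, APOA1, COL1A2 and DCN had none. The part of other cell types in the results was not tested.

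Between the 2 groups 3588 genes were higher after crosslinking (26.1% of those tested) and 4636 were lower (33.8%) by the edgeR quasi-likelihood test at an adjusted p under 0.05. The excess of lower genes was not kept in every setting. Without 4SU_365XL library B 2847 were higher and 2376 lower, with DESeq2 3817 and 2822 (57.5% of calls higher), and with a length trend removed from each library 3630 and 3033 (54.5% higher). More than 2-fold changes made up 3404 of the 3588 and 4417 of the 4636. Over 8-fold changes were a rise in 830 genes and a fall in 389. Of the latter, 105 had no tag in either crosslinked library, and the size of their fitted fold change is not a measurement. The library ranges of the groups did not overlap for 11507 genes (83.8%). The median log2 fold change of all tested genes was -0.50, with quartiles of -1.56 and 1.07. This centre depends on the scaling. It was -0.25 with RLE factors, -0.64 with upper-quartile factors and -2.40 with library totals, where 1019 genes were higher and 9965 lower (9.28% of calls higher, against 43.6% with the TMM factors used here, 52.8% with RLE and 39.9% with upper-quartile factors). Directions below are therefore relative to the bulk of mRNAs, and tag counts cannot tell fewer cells from less RNA per cell. On the scale of library totals a rise of under about 1.9 on the log2 scale becomes a fall, and each place where that turns a named gene or the median of a list is given. The calls of LAMC1, ITGA7, ITGB5, NID1, HSPG2, DYNC1H1, KIF1C, USP5, ZNF428, PHGDH, PEG10 and FBN2, all higher below, were lost with library totals.

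The fold change fell with transcript length. In the shortest decile (216 to 1050 nt) the median log2 fold change was 1.88, and 64.2% of genes were higher and 7.13% lower. In the longest decile (6311 to 101519 nt) it was -1.52, and 10.1% were higher and 61.1% lower. The median fell from each decile to the next, crossing 0 between the third (0.36) and the fourth (-0.25). The least-squares slope over all genes was -0.81 per doubling of length and Spearman's correlation was -0.45 across 13731 genes, which are not independent replicates. Without 4SU_NOXL library B the slope was -0.66. The same shift shows in whole libraries. Transcripts under 1000 nt took 44.7% and 35.6% of tags after crosslinking against 17.7% and 11.1% without it, and those of 5000 nt or more took 3.79% and 5.78% against 13.9% and 19.3%. The tag-weighted median length averaged 1289 ± 201 nt (SD, n = 2) against 2612 ± 337 nt. The groups did not overlap, and the exact permutation test gave its smallest possible two-sided p of 0.333 for 2 against 2 libraries.

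**Figure D1:**
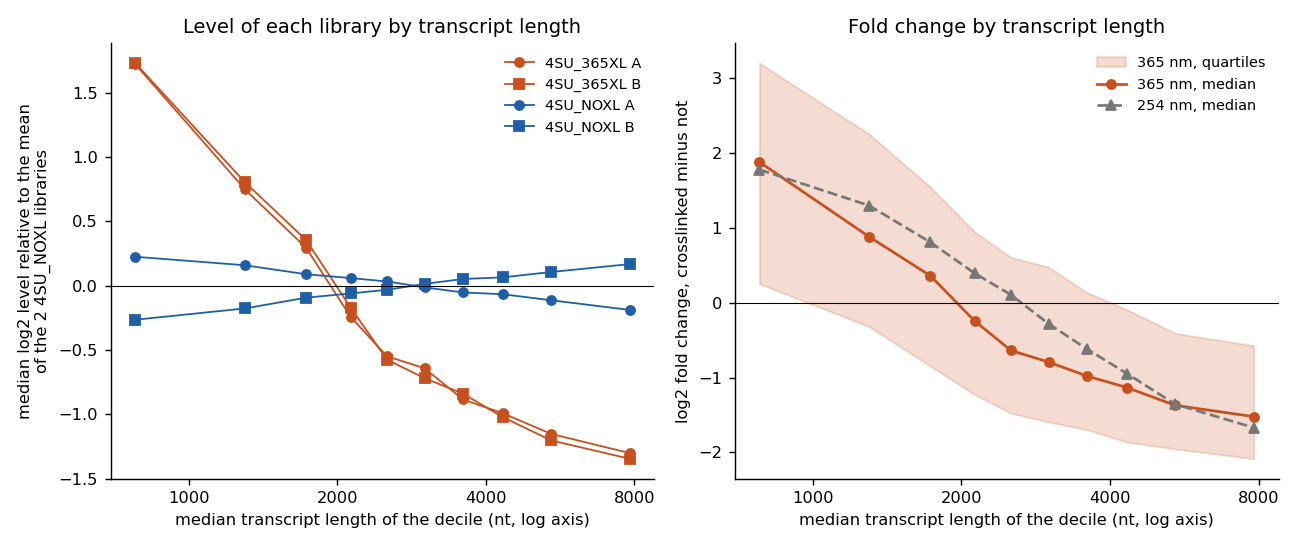
Left, median log2 level of each 4SU library in 10 length classes, relative to the mean of the 2 libraries without crosslinking. Right, median log2 fold change by length class at 365 nm (line, with quartiles shaded) and 254 nm (dashed), on a log axis of length. The 2 crosslinked libraries lie on top of each other and fall from 1.72 and 1.73 in the shortest class to -1.30 and -1.35 in the longest, and the 365 nm medians run from 1.88 to -1.52.

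The 2 crosslinked libraries followed the length trend almost identically, at 1.72 and 1.73 in the shortest decile and -1.30 and -1.35 in the longest. The uncrosslinked libraries A and B lay farther apart, at 0.22 and -0.27 in the shortest decile and -0.19 and 0.17 in the longest. The trend followed the noncoding part of the transcript more than the coding part, with Spearman correlations of -0.43 over 9974 genes and -0.33 over 9990 genes with a GENCODE 29 model of like length. Uridine content ran the same way. The Spearman correlation with the percentage of U was -0.28 across 10213 genes, and -0.20 once the smooth length trend was subtracted from the fold change. The genes were cut into 4 classes by length and each of these into 4 by U content. In the shortest class the median log2 fold change fell from 1.55 in the U-poorest genes (11.1% to 19.5% U) to 0.69 in the U-richest (26.1% to 34.9%). In the longest class it fell from -1.04 to -1.54 in the next set, followed by -1.56 and -1.55. At 254 nm without 4SU the gradient with U was steeper, with a Spearman correlation of -0.56 and medians from -0.54 to -2.17 across the same 4 sets of long genes. Length and U content are themselves correlated (Spearman 0.25), and these values are descriptions across genes with no test.

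The level of a gene in untreated cells, which enter neither compared group, also separated the fold changes. Across the lowest 7 of 10 classes of untreated level the median stayed between -0.80 and -0.58. It was -0.57 in the eighth, -0.08 in the ninth and 1.06 in the highest class, where 52.8% of genes were higher and 22.8% lower. Among genes of the 2 shortest deciles the median was 0.80 in the lowest class, then climbed from 0.12 at 2.53 normalised CPM (after TMM scaling, as in all values below) to 3.22 at 187 CPM, where 93.1% were higher. Among the 2 longest deciles it stayed at or below -1.28 up to the ninth class and reached -0.78 in the highest, at 154 CPM. There 24.7% were higher and 49.8% lower, against 5.45% and 70.5% in the sixth class. The upper quartile of these abundant long genes was 0.78, and the lower quartile was -1.66.

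**Figure D2:**
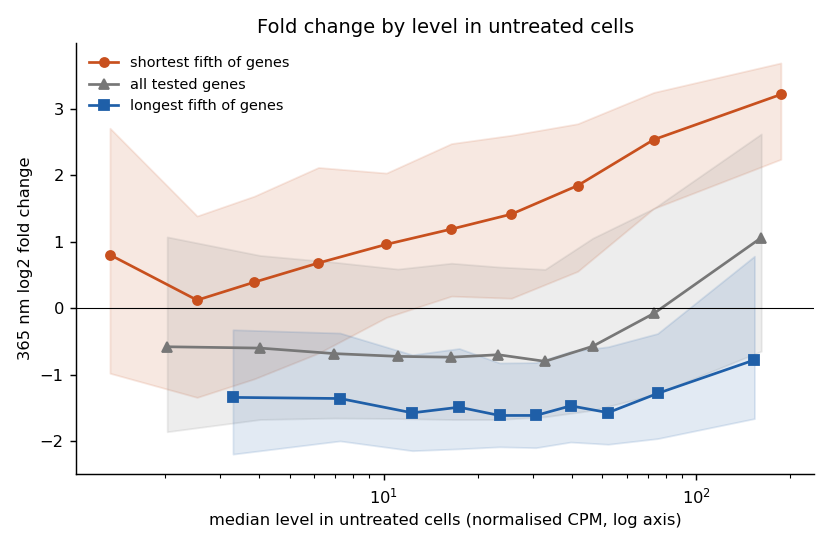
Median 365 nm log2 fold change (lines) with quartiles (shaded) in 10 classes of the level in untreated cells, for all tested genes and for the 2 shortest and the 2 longest deciles of transcript length. The horizontal axis is normalised CPM on a log scale. The shortest genes rise to a median of 3.22 in their most abundant class, and the longest stay below 0 in every class.

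Genes of the cytosolic ribosomal proteins have short, abundant mRNAs. All 75 tested rose, by a median log2 fold change of 3.72 (1.75 with library totals), and their share of all tags was 32.1% and 22.6% against 10.1% and 5.89%. Their mRNAs carry a 5′ terminal oligopyrimidine tract, a C followed by pyrimidines at the first transcribed bases, through which growth signals control their translation. Since the whole group moved, the start sites of a pair of its most abundant members are shown beside those of a pair of matrix genes that rose without being short and a pair of HOX genes that fell. The windows run from 30 bases before the start to 30 bases from it, from RefSeq on GRCh38.p14, 5′ to 3′ on the transcribed strand. Capitals mark the letters CTTTC where they lie within 10 bases before and 15 from the start.
RPLP1 (large subunit stalk protein, chr15:69452788-69452847, plus strand): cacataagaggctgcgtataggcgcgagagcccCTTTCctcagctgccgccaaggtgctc
RPS19 (small subunit protein, chr19:41860225-41860284, plus strand): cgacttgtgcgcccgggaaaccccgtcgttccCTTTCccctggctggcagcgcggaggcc
COL4A2 (type IV collagen chain, chr13:110307254-110307313, plus strand): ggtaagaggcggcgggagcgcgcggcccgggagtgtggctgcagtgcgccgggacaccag
LAMC1 (laminin gamma chain, chr1:183023390-183023449, plus strand): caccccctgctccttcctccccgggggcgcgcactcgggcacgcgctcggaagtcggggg
HOXA9 (homeobox factor, chr7:27165508-27165567, minus strand): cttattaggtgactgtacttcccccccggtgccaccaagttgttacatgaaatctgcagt
HOXA10 (homeobox factor, chr7:27179832-27179891, minus strand): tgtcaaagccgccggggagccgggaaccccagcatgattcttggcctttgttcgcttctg

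In that 25-base window CTTTC was found on the transcribed strand of 25 of the 60 ribosomal protein genes with an entry in the RefSeq promoter table (41.7%), against 3.52% of all 27305 promoters. On the other strand it was found in 1 of the 60 and in 2.57% of all promoters. The median log2 fold change was 3.74 over the 25 ribosomal protein genes with the letters and 3.73 over the 35 without them. It was -0.45 over the 275 other tested genes with CTTTC and -0.60 over all genes without it. A match is a description and not a mapped start or a cause. RPLP1 stood at 49402 and 23374 normalised CPM in 4SU_365XL libraries A and B and at 2999.8 and 1431 in the 4SU_NOXL libraries. That is a log2 fold change of 4.04 ± 0.67 (SE; edgeR adjusted p 2.58e-06), and library A lay above B in both groups. RPS19 had 38473 and 20509 against 2602 and 1227 CPM, a log2 fold change of 3.95 ± 0.64. The deposited entry of RPL27A is 4906 nt long, and its fold change of 3.80, with split tags, was that of its family and not that of its length class.

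Other short mRNAs of basic cell machinery rose with them. Of 70 respiratory chain genes, which encode subunits of the mitochondrial oxidative complexes, 69 rose and none fell, with a median of 3.29. COX6B1, a subunit of cytochrome c oxidase, had 6214 and 3964 against 440.5 and 314 CPM. Among 23 peroxiredoxin and thioredoxin genes, which remove peroxides, 21 rose and 1 fell (median 2.93). GPX4, the phospholipid hydroperoxide peroxidase, went from 205 and 129.8 to 2917 and 1769 CPM, a log2 fold change of 3.81 ± 0.47. The S100 proteins, annexins and galectins rose in 13 of 17 cases with none lower (median 2.81), including S100A10 (3.59) and its partner ANXA2 (3.38). In the actin, tubulin and thymosin list 19 of 27 rose and none fell, with a median of 1.79 (-0.07 with library totals). Its examples are the actin-sequestering TMSB10 (3.79), the actin-severing CFL1 (3.50) and the myosin light chain MYL6 (3.71).

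Other short lists rose less uniformly. Of 74 mitochondrial ribosomal protein genes 51 rose and 3 fell, with a median of 1.44 (-0.47 with library totals, where 8 rose and 31 fell). MRPL51, one of their most abundant, had 1175 and 1193 against 185 and 136 CPM. Proteasome subunits had 27 of 36 higher and none lower (median 1.94, or 0.05 with library totals), with PSMD8 of the regulatory cap at 2.95. Sm and LSm proteins, the rings that bind spliceosomal and other small RNAs, had 13 of 21 higher and 3 lower (median 2.19), with LSM4 at 3.12. Among 15 subunits of the CCT chaperonin and prefoldin, which fold actin and tubulin, 10 rose and none fell (median 1.48, or -0.43 with library totals). PFDN5 of prefoldin had a log2 fold change of 3.76 ± 0.50.

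Against the length trend, most laminin and collagen genes of the extracellular matrix rose. Of 49 integrins, laminins and collagens, whose transcripts have a median length of 5925 nt, 36 rose and 2 fell, with a median log2 fold change of 2.18. That lies 3.37 above the smooth trend for genes of their length, and 46 of the 49 were above it. With library totals the median was 0.31, with 15 higher and 9 lower. Laminins are the cross-shaped trimers of the basement membrane, and all 11 tested chains rose, from 1.12 for LAMA3 (-0.84 with library totals, and a call lost without 4SU_365XL library A or 4SU_NOXL library A) to 3.44 for LAMA1, whose tags were split. LAMB1, a beta chain, had 619.8 and 574 CPM in the crosslinked libraries and 51.2 and 98.9 in the others, a log2 fold change of 2.99 ± 0.38 (edgeR adjusted p 1.48e-08). LAMC1, the common gamma chain, had 637 and 592 against 90.7 and 134 CPM (2.45 ± 0.37). In both genes the lower crosslinked library was more than 4 times the higher uncrosslinked one.

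Of 23 collagen chains 17 rose and none fell, with a median of 2.30. COL4A2, a chain of the basement membrane network collagen, stood at 869 and 689 CPM against 62.3 and 97.0, a log2 fold change of 3.29 ± 0.38 (edgeR adjusted p 3.43e-09). COL14A1, a fibril-associated collagen, had 439 and 334 against 25.02 and 49.0 CPM (3.37 ± 0.37). COL2A1, a fibrillar collagen, had 802 and 776 against 75.4 and 130.2 CPM (2.94 ± 0.38). Of the 6 type IV chains 5 rose, and COL4A3 had overlapping groups, at 7.86 and 2.097 against 1.42 and 2.26 CPM (1.22, or -0.70 with library totals). COL1A1, also a marker of fibroblasts, had 51 and 91 tags against 39 and 92, which is 57.3 and 63.6 against 11.1 and 17.3 normalised CPM, and of the other fibroblast markers COL3A1 had 4 and 11 against 6 and 9 tags and COL1A2 and DCN had none. With library totals COL1A1 had 0.15 (adjusted p 0.757). The integrins, receptors for these proteins, were mixed, with 8 of 15 higher, 2 lower and a median of 1.20, which library totals would turn. ITGB5 (2.25) and the laminin receptor subunit ITGA7 (2.04) were among those higher. ITGB1, the common beta subunit, had 71.9 and 142 against 44.1 and 72.4 CPM with 0.89 ± 0.37, a call that was lost without 4SU_365XL library B (0.30, adjusted p 0.639) or 4SU_NOXL library A (0.58, adjusted p 0.27), and with library totals the value was -0.997. The collagen receptor subunit ITGA2 fell, at -1.99 ± 0.70 with split tags, a call lost without either 4SU library B, with DESeq2 and with a length trend removed from each library. ITGA2 had 3.37 and 1.40 CPM after crosslinking and 7.68 and 9.80 without it. The crosslinked values are near the floor of 3 tags, so the size of its fall is uncertain. Another 5 matrix genes, named after their values were seen, rose as well. They are FN1 (2.91), NID1 (2.63), NID2 (2.86), AGRN (2.91) and HSPG2 (2.11), which encode fibronectin, both nidogens, agrin and perlecan.

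**Figure D3:**
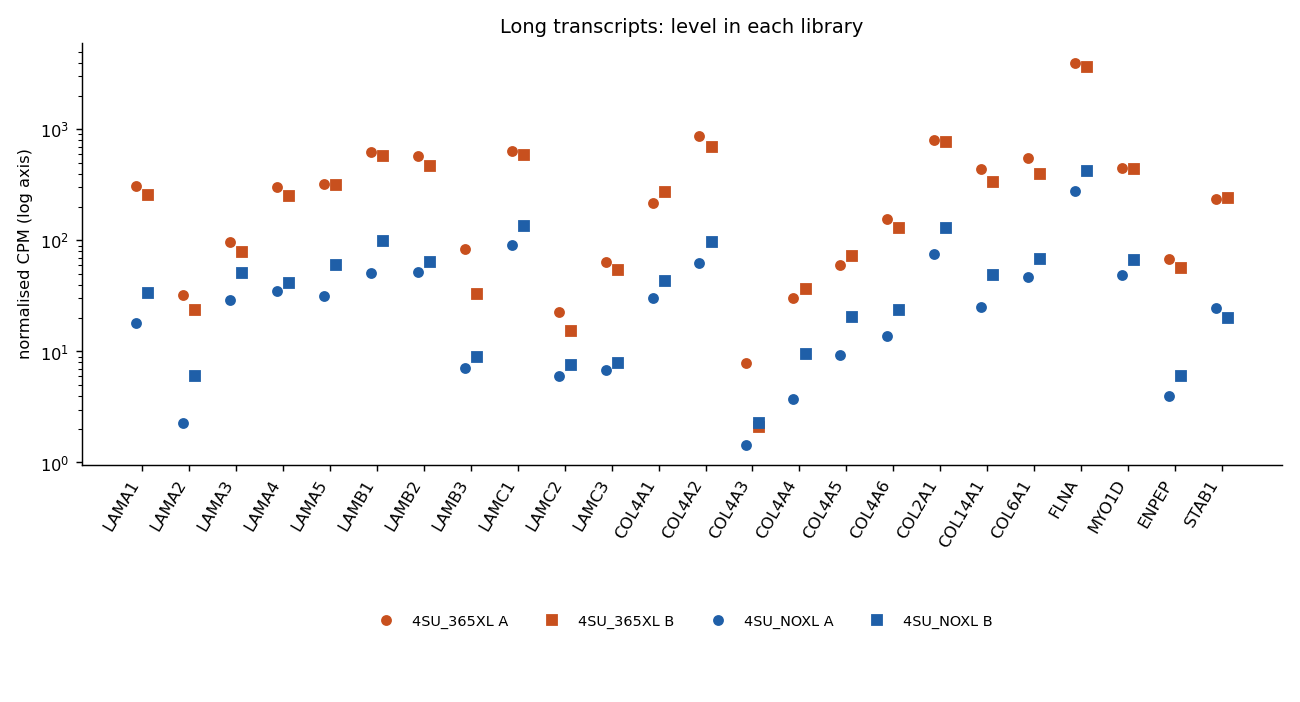
Normalised CPM (log axis) of 24 transcripts that rose or belong to the laminins and type IV collagens in each of the 4 4SU libraries, circles for library A and squares for library B. The crosslinked libraries lie above the uncrosslinked ones for 23 of the 24, among them COL4A2 at 869 and 689 against 62.3 and 97.0, and overlap for COL4A3. Transcripts outside the laminins and type IV collagens are shown because they rose, so their separation is no test. Over all tested genes the library ranges did not overlap, in either direction, for 83.8%.

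Giant cytoskeletal proteins divided. Of 34 dyneins, myosins, spectrins and related genes (median length 8683 nt) 15 rose and 9 fell, and 27 lay above the length trend. The median was 0.63 (-1.27 with library totals), and 8 rose without 4SU_365XL library B and 9 without 4SU_NOXL library A. Those that fell numbered 4 without 4SU_365XL library A or 4SU_NOXL library B, and 1 with a length trend removed from each library. FLNA, which crosslinks actin filaments, had 4004 and 3619.5 against 278 and 425 CPM, with split tags. Its log2 fold change was 3.44 ± 0.46. MYO1D, a membrane-binding class I myosin, went from 49.2 and 66.1 to 447 and 439 CPM (2.94 ± 0.35). DYNC1H1, the cytoplasmic dynein heavy chain with a 14361 nt transcript, had 1159 and 1451 against 254 and 366 CPM (2.07 ± 0.40). All 3 nonmuscle myosin heavy chains rose. MYH9 was the least changed of them at 1.05 ± 0.36, a call lost without 4SU_365XL library B or 4SU_NOXL library A, and with library totals its value was -0.83. None of 7 nesprins, ankyrins and plakins rose and 5 fell, with a median of -1.64. Their median length was 15249 nt, and they lay at a median of -0.19 from the length trend. Of all genes of 6311 nt or more 61.1% fell, with a median of -1.52. DST, a plakin that links filament systems, had 35.9 and 33.6 against 79.1 and 136 CPM (-1.64 ± 0.37), and with the length trend removed -0.41 (adjusted p 0.275).

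The long genes that rose most, among those of the 2 longest deciles with a mean level above the median, came from several pathways. CLSTN2, a synaptic cadherin-like protein, had 46.0 and 25.2 against 1.14 and 2.83 CPM, a log2 fold change of 4.04 ± 0.53. ENPEP, the membrane aminopeptidase that cleaves angiotensin II, had 68.5 and 56.6 against 3.98 and 6.03 CPM (3.60 ± 0.42). The mean level covers both compared groups, and its median was 17.9 CPM. CLSTN2 and ENPEP passed it only through the crosslinked libraries, with 4SU_NOXL means of 1.98 and 5.01 CPM. The 1.14 CPM of CLSTN2 in 4SU_NOXL library A is near the floor of 3 tags, so the size of its rise is uncertain. The scavenger receptor gene STAB1 (3.43) followed, as did, with split tags, the phosphorylase kinase subunit gene PHKB (3.52) and the histone chaperone gene NAP1L1 (3.39). OXCT1, which activates ketone bodies, and GNAS, the stimulatory G protein subunit, are shorter and lay 4.68 and 4.66 above the trend, with log2 fold changes of 3.87 and 3.80. In all, 278 of 2746 genes of 4766 nt or more rose (10.1%) and 1596 fell.

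Machinery of protein entry into the endoplasmic reticulum rose as a group. Of 32 genes of the signal recognition particle, translocon, oligosaccharyltransferase and signal peptidase 23 rose and 3 fell, with a median of 1.95 (0.02 with library totals, where 10 rose and 9 fell). RPN2, an oligosaccharyltransferase subunit, had 2741 and 2013 against 193 and 217 CPM (3.53 ± 0.43). SSR4, a translocon-associated protein, had 3099 and 1749 against 237 and 126 CPM (3.74 ± 0.48). Of 19 tricarboxylic acid cycle genes 13 rose and 1 fell (median 1.88, or 0.01 with library totals, where 5 rose and 7 fell). MDH2, mitochondrial malate dehydrogenase, had 962 and 756 against 91.9 and 69.0 CPM (3.42 ± 0.40). CS, citrate synthase, rose less, at 1.26 ± 0.36, and its value with library totals was -0.66. Translation factors were split. Of 40 initiation factors 20 rose and 6 fell (median 0.78, or -1.14 with library totals), with EIF3L at 3.38 and the scaffold EIF4G1 at 1.70 (-0.20 with library totals). Of 11 elongation factors 7 rose and none fell (median 2.58), with EEF1G at 3.58 and the mitochondrial TUFM at 3.20.

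Regulators of chromatin and transcription fell. Of 53 histone methyltransferases and demethylases, which write and erase histone methylation, 39 fell and 3 rose, with a median of -1.77. With a length trend removed from each library, 22 fell and 5 rose. SETD5, a SET domain protein, had 35.9 and 28.0 against 134 and 168 CPM (-2.26 ± 0.36, edgeR adjusted p 1.26e-06). DOT1L, the H3K79 methyltransferase, had -1.25 ± 0.35, and with the length trend removed -0.17 (adjusted p 0.702). Of 53 chromatin remodellers 31 fell and 6 rose (median -1.13), and 14 fell with the length trend removed. In that setting 3033 of all 13731 tested genes fell, and the count of the remodellers was near that share. The remodellers had a median length of 6031 nt, and 24 of the 53 lay above the length trend. Of all genes of 4766 to 6308 nt 55.1% fell, so their count was near that of genes of like length. The most abundant remodeller, CHD3 of the NuRD complex, was an exception. It rose from 91.3 and 128 to 867 and 876 CPM, whereas the bromodomain protein gene BRD2 fell from 467 and 527 to 144 and 122.

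Among sequence-specific factors, 23 of 34 ZBTB genes fell and none rose (median -1.71, and 15 fell without 4SU_365XL library B). The 356 ZNF genes had 224 lower and 15 higher, with a median of -1.79, or -1.75 with the 8 genes that had no tag after crosslinking set to a bound of 3 tags over the group. Without 4SU_365XL library B 118 fell, and with the length trend removed 143 fell. ZNF703, an abundant member, had 71.9 and 59.4 against 254 and 192 CPM (-1.77 ± 0.44), a call not kept by DESeq2 (adjusted p 0.12). ZNF428, with a transcript of 1411 nt, rose (2.62 ± 0.41). Among 60 SOX, FOX and kidney progenitor factors 36 fell and 4 rose (median -1.71), and 19 fell without 4SU_365XL library B. FOXC1, a forkhead factor of mesoderm, went from 186 and 213 to 66.3 and 53.1 CPM.

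Wnt and Notch receptors and ligands, which signal between neighbouring cells, had 20 of 31 lower and 1 higher (median -1.78). CELSR3 (-1.84) and CELSR1 (-1.65), receptors of planar polarity, and the Wnt receptor gene FZD8 (-1.86, a call lost without 4SU_365XL library B) were among them. With the length trend removed CELSR3 had -0.67 (adjusted p 0.164) and CELSR1 -0.47 (adjusted p 0.301). With the length trend removed 8 of the list fell, and without 4SU_365XL library B 12 fell. Of 42 ubiquitin-specific proteases, which remove ubiquitin, 28 fell and 1 rose (median -1.31). USP1, which acts in DNA crosslink repair, had 24.7 and 22.4 against 115 and 95.9 CPM, and the one that rose, USP5, had 655 and 779.6 against 135 and 128. The count of lower genes was 16 without either crosslinked library and 11 with the length trend removed. Of 23 HECT ligases, which attach ubiquitin, 15 fell and 1 rose (median -1.27), with UBE3C at -2.04. There 7 fell without 4SU_365XL library B and 5 with the length trend removed. With the length trend removed 3033 of all 13731 tested genes fell. The counts of the Wnt and Notch list, the proteases and the ligases were near that share. Of the 31 Wnt and Notch genes 6 lay above the length trend. Of 32 kinesins (median length 5187 nt) 18 fell and 2 rose (median -1.32), and 14 lay above the length trend. Of all genes of 4766 to 6308 nt 55.1% fell, so the kinesin count was near that of genes of like length. The mitotic motor gene KIF23 had -2.22 ± 0.37, and KIF1C, a transport motor, rose by 2.47 ± 0.36.

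HOX genes, which pattern the body axis, fell below the length trend. With a median length of 2018 nt they would sit near the middle of the length trend, yet 24 of 35 fell and 1 rose, with a median of -1.57, and 34 lay below the trend. By cluster, 8 of 11 HOXA, 6 of 9 HOXB, 4 of 8 HOXC and 6 of 7 HOXD genes fell. Without 4SU_365XL library B 12 fell. HOXA9 had 50.5 and 32.9 against 185 and 139 CPM (-1.98 ± 0.38, edgeR adjusted p 3.4e-05). HOXA5 had 11.2 and 6.99 against 42.4 and 40.5 CPM (-2.23 ± 0.44) and lay 3.13 below the trend. HOXD10 had 12.4 and 8.39 against 44.6 and 61.6 CPM (-2.40 ± 0.42). In these 3 genes every crosslinked library was below every uncrosslinked one, and library ranges did not overlap for 83.8% of all tested genes.

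Of 2747 genes of 1532 nt or less, 228 fell (8.30%) and 1533 rose. Those that fell most with a mean level above the median of all genes included HOXA5 (-2.23), RSRP1 (-1.76) and NUP37 (-1.66). Some regulators of differentiation and the cell cycle were among them with smaller falls. ID2, an inhibitor of basic helix-loop-helix factors, had 16.8 and 11.2 against 33.6 and 40.5 CPM (-1.44 ± 0.40), a call lost without 4SU_365XL library B (-1.14, adjusted p 0.0903). HES1, a Notch effector, had 19.1 and 18.9 against 49.5 and 49.9 CPM (-1.39 ± 0.37). MAD2L1, of the spindle checkpoint, had -1.35, and without 4SU_NOXL library A -0.61 (adjusted p 0.268). Some longer transcripts also lay far below the length trend. They are FBXO5 (2269 nt, -2.90), an inhibitor of the anaphase-promoting complex, GTPBP2 (2996 nt, -3.15) and the insulin receptor substrate gene IRS4 (3881 nt). IRS4 had 14.6 and 16.1 CPM after crosslinking and 149.9 and 214 without it, with both crosslinked libraries far below both others (-3.56 ± 0.42).

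**Figure D4:**
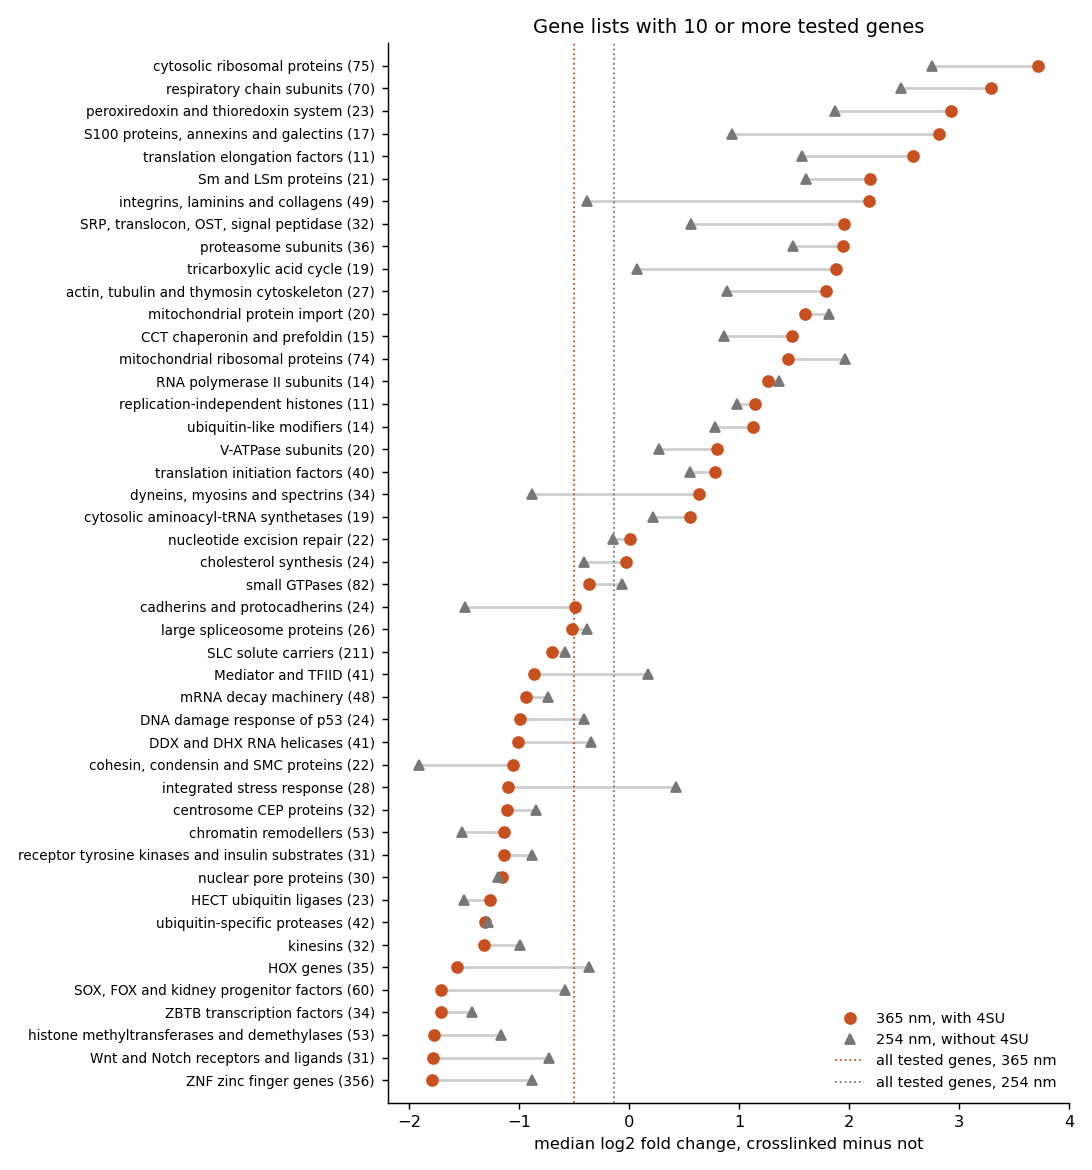
Median log2 fold change of gene lists with 10 or more tested genes (1 list is not shown), at 365 nm with 4SU (circles) and at 254 nm without 4SU (triangles), ordered by the 365 nm value, with the number of tested genes in parentheses. Dotted lines give the medians of all tested genes, -0.50 and -0.14. Ribosomal proteins lead at 3.72 and ZNF genes close the order at -1.79, and the integrins, laminins and collagens stand apart from their 254 nm value of -0.38.

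The effect of 365 nm crosslinking with 4SU was set against that of 254 nm crosslinking without 4SU (NO4SU_254XL minus NO4SU_NOXL) in an interaction test over the 8 libraries. The 2 comparisons share no library, but wavelength and 4SU change together and cannot be told apart. At 254 nm 3460 genes were higher (25.2%) and 3849 lower (28.0%). Both effects ran together across genes, with a Spearman correlation of 0.66 and Pearson's r of 0.65 over 13731 genes, given as a description, and both share the dependence on length. Of the genes higher at 365 nm 61.6% were also higher at 254 nm, or 63.8% of those higher at 254 nm. Of the genes lower at 365 nm 55.0% were lower at 254 nm, or 66.3% of those lower at 254 nm. There were 247 genes higher at 365 nm and lower at 254 nm, and 100 the other way. The interaction test called the 365 nm effect above the 254 nm effect for 1372 genes (9.99%) and below it for 973 (7.09%). The count below ranged from 246 without 4SU_365XL library B to 1859 without NO4SU_NOXL library A. It was 389 without 4SU_365XL library A, 404 without 4SU_NOXL library A, 458 and 636 without NO4SU_254XL libraries A and B, and 404 with DESeq2. The count above was 858 without 4SU_365XL library B.

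The median difference was larger for the matrix list than for any other of the 48 lists. Of its 49 genes, 33 had a 365 nm effect above that at 254 nm and none below, with a median difference of 2.25 and a median of -0.38 at 254 nm. With 1 library left out the count above was between 25 and 32, and with library totals it was 20. All 11 laminin chains and all 6 type IV collagen chains were among the 33. For COL4A3 this rests on low counts, with 1.36 and 1.46 CPM after 254 nm crosslinking, near the floor. Its difference was 2.95 ± 1.01 (edgeR adjusted p 0.0367). COL14A1 had 3.37 at 365 nm and -1.36 at 254 nm, a difference of 4.73 ± 0.52 (edgeR adjusted p 1.67e-08). In the 254 nm pair it stood at 25.9 and 22.5 CPM after crosslinking and 52.8 and 71.3 without it. LAMB1 had 80.4 and 79.1 against 104 and 136 CPM there, a log2 fold change of -0.59 against 2.99 at 365 nm. Dyneins, myosins and spectrins had 18 of 34 above and none below (median difference 1.60), and 11 without 4SU_365XL library B. Tricarboxylic acid cycle genes had 10 of 19 above and none below, and 6 without 4SU_365XL library B. The endoplasmic reticulum entry list had 11 of 32 above and 1 below. Actin, tubulin and thymosin genes had 10 of 27 above and none below, but between 3 and 12 when 1 library was left out.

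For the ribosomal protein genes the difference of the effects had a median of 0.96, but 1 of the 75 passed the interaction test and none was below (9 with DESeq2 and 11 with a length trend removed). Ribosomal proteins stood in the highest part of both comparisons, at medians of 3.72 and 2.75. Among all tested genes 7.09% had a 365 nm effect below the 254 nm effect, and the count of mitochondrial ribosomal proteins below was near that share. Mitochondrial ribosomal proteins had a higher median at 254 nm (1.97) than at 365 nm (1.44), with 6 of 74 below and none above, a count of 0 to 12 when 1 library was left out. ZNF genes had 51 of 356 below and none above, and 9 below without 4SU_365XL library B. Integrated stress response genes, many of which serve amino acid uptake and synthesis, had 10 of 28 below and none above. Their medians were -1.10 at 365 nm and 0.42 at 254 nm, and 3 were below without 4SU_365XL library B and 4 without 4SU_NOXL library A. DDIT4, an inhibitor of growth signalling in that programme, had 124 and 48.9 against 333 and 223 CPM at 365 nm and 196 and 98.6 against 107 and 61.8 CPM at 254 nm. The 365 nm fall of DDIT4 was lost without 4SU_365XL library B (-1.17, adjusted p 0.0629). PHGDH, the first enzyme of serine synthesis, rose in the 365 nm comparison (2.33 ± 0.41).

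**Figure D5:**
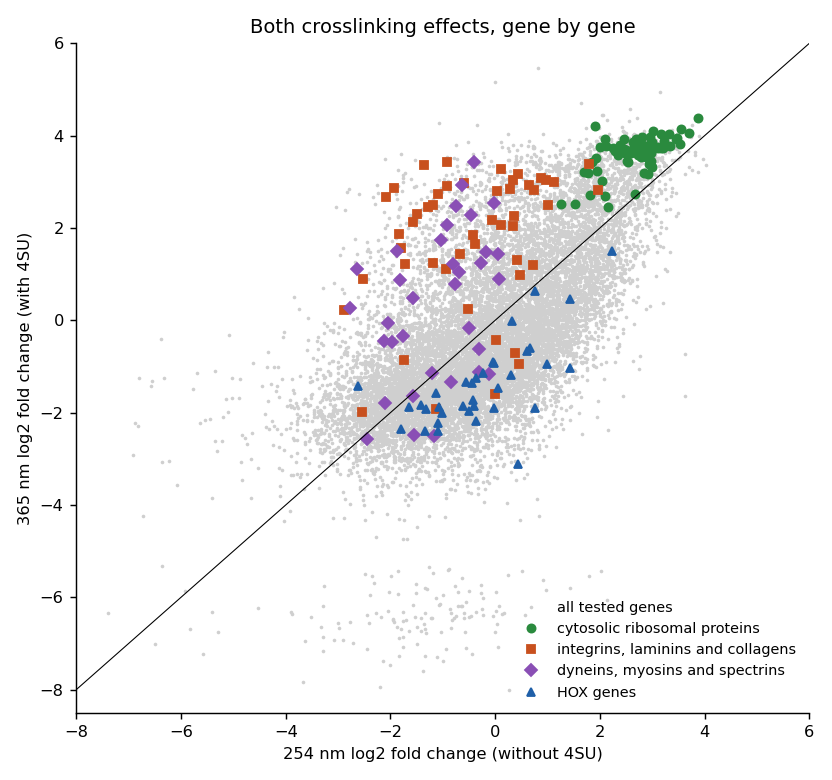
Log2 fold change at 365 nm with 4SU against that at 254 nm without 4SU for all 13731 tested genes (grey), with 4 lists in colour and the line of equal effects. Ribosomal protein genes lie at the top right with medians of 3.72 and 2.75, and integrins, laminins and collagens lie high at 365 nm and near 0 or below at 254 nm. Of the 131 genes under -5 at 365 nm, 106 had no tag in the crosslinked libraries, and their position is set by the fitting.

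Among single genes TXNDC16, a thioredoxin domain protein of the endoplasmic reticulum, had one of the 5 largest differences. It had 193 and 176 against 14.2 and 18.1 CPM at 365 nm. At 254 nm it had 11.4 and 5.86 against 26.3 and 49.0 CPM, which is the opposite direction. ACTR2, a subunit of the Arp2/3 actin nucleator, rose by 2.77 at 365 nm and had -2.83 at 254 nm. PEG10, a retrotransposon-derived gene, had 2012 and 2234 against 337 and 436 CPM at 365 nm and 101 and 62.0 against 540.2 and 804 CPM at 254 nm. The fibrillin gene FBN2 (2.39 and -2.87), the membrane-actin linker gene MSN (3.25 and -1.85), the actin bundler gene PLS3 (3.19 and -1.73) and, with split tags, the DNA repair kinase gene PRKDC (2.93 and -2.26) showed the same pattern.

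On the other side FADD, the adaptor of death receptors, had 7.86 and 2.80 against 26.4 and 17.7 CPM at 365 nm and 36.3 and 48.3 against 16.3 and 14.9 CPM at 254 nm. It was lower after 365 nm and higher after 254 nm crosslinking, and its 365 nm call was lost without 4SU_365XL library B (-1.48, adjusted p 0.0697). RAB9A, a GTPase of endosome traffic, had -2.52 and 0.56, with crosslinked 4SU libraries at 4.49 and 4.19 CPM, near the floor. The 2.80 CPM of FADD in 4SU_365XL library B is also near the floor, so the size of the FADD fall is uncertain. The ribosome assembly genes BYSL (-1.23 and 1.57) and, with split tags, PPAN (-1.07 and 1.76) went the same way. The 365 nm call of PPAN was not kept by DESeq2 (adjusted p 0.0838) or by edgeR with RLE factors (adjusted p 0.0561). The call of BYSL was lost without 4SU_365XL library A (adjusted p 0.0554), and that of PPAN without either crosslinked library or 4SU_NOXL library B (adjusted p 0.0524 to 0.0934).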

How the data were processed

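Per the labels, poly(A) RNA of HEK293 cells was sequenced in every library. The deposited values are estimated counts of tags per transcript, made by the authors and partly fractional. Aligner, genome build and annotation: not given in the sources used here. Accessions were matched to symbols through the RefSeq gene table and GENCODE 29, and values were rounded to whole tags. A gene's tags are called split where the deposited estimates are fractional, which concerned 4813 tested genes. The 8 libraries of 4 groups were fitted with the edgeR 4.0.16 quasi-likelihood test (R 4.3.3, TMM factors, filterByExpr, Benjamini-Hochberg adjusted p under 0.05), with contrasts for 365 nm, 254 nm and their difference. The SE was approximated from the fold change and its F statistic. The smooth length trend is a lowess fit with span 0.3. Depth over the 8 libraries was 2238569 to 3099769 tags, and 3 tags were taken as the floor. Floors cover counting error only, whereas the SE includes the spread between libraries.

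Named genes are the 3 most abundant of each list, the 10 long genes that rose most, the 10 short genes that fell most, and the 10 farthest to each side of the length trend and of the 254 nm effect (the trend and long or short sets among genes above the median of mean level), beside the most abundant transcripts of each group. DST, ITGA2, ITGA7, ITGB1, ITGB5, LAMB1, LAMA3, COL4A3, COL1A1 and SPTAN1, as well as the 5 matrix genes marked in the text, fall outside that rule and were chosen after their values were seen. The members and lists were chosen with earlier results of these data known. Alternatives were DESeq2 1.42.0, other scalings and filters, a length trend removed from each library, a replicate block and each library left out. The fit was tested on simulated data. The 2 siRNA libraries were not used here.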

Additional observations from a re-analysis of the deposited data

Results flagged for a closer look

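A difference between the 365 nm and the 254 nm effect on the log2 scale, by the edgeR interaction test over 8 libraries, drew attention to these results. The test called 1372 genes above and 973 below. The largest differences above were 5.61 for TXNDC16, 5.60 for ACTR2, 5.50 for PEG10, 5.41 for the aminopeptidase gene ENPEP and 5.26 for the fibrillin gene FBN2. They were ranked among genes above the median of the mean level over the 8 libraries. ENPEP had 68.5 and 56.6 CPM in 4SU_365XL and 3.98 to 20.2 CPM in the other libraries. Its mean level therefore rests mostly on the crosslinked 4SU libraries. The largest below were -3.59 for FADD, -3.48 for CCDC71, -3.23 for the Mediator subunit gene MED9 (with split tags), -3.08 for RAB9A and -3.01 for KTI12. In the crosslinked 4SU libraries FADD had 7.86 and 2.80 normalised CPM, CCDC71 3.37 and 2.10 and RAB9A 4.49 and 4.19. Values this low are near the floor of 3 tags, for FADD in library B, so the sizes of these differences are uncertain. All 5 of the first set rose at 365 nm, and all 5 of the second fell, but without 4SU_365XL library B the falls of FADD (-1.48, adjusted p 0.0697), CCDC71 (-1.96, adjusted p 0.0565) and KTI12 (-1.001, adjusted p 0.172) were lost by edgeR. With library totals the calls of PEG10 and FBN2 were lost.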

How the results depend on the processing

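Of 133 genes followed under the alternatives 132 passed the threshold in the fit reported, all but COL4A3. Of the 132, 34 lost it in another setting and 17 when 1 library was left out. With library totals CS had -0.66, EIF4G1 -0.20, ITGB1 -0.997, MYH9 -0.83, SPTAN1 -0.71, PRPF8 -0.17, DHX9 -0.093, CCNG1 -0.75, LAMA3 -0.84 and COL4A3 -0.70, and none of the 133 reversed in another setting. Relative to all genes, 2 list medians reversed with a length trend removed from each library, cohesin and condensin at 0.23 and receptor tyrosine kinases at 0.026. Genes lower numbered 2822 with DESeq2, 3033 with the length trend removed and 9965 with library totals, and genes higher 1019 with library totals. The interaction test gave 494 genes above with library totals and 875 at an adjusted p of 0.01, and below it 404 with DESeq2, 607 with RLE factors, 4459 with library totals and 260 at 0.01. The length slope was -0.43 with no expression filter and -1.03 for genes above the median of mean expression. With 1 library left out, genes higher ranged from 2847 to 3856, genes lower from 2376 to 5069, differences above from 858 to 1657, differences below from 246 to 1859, and the slope from -0.90 to -0.66. Apart from smaller sets of genes or samples, the cause was not tested.

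With the letters A and B as a replicate block, 3703 genes were higher, 4904 lower, 1554 above and 1353 below the 254 nm effect, and the slope was -0.82. Same-letter deviations of 4SU_365XL and 4SU_NOXL correlated at 0.149, and the other pairs of groups at -0.081 to 0.346, so the letters were taken as labels only. With 2 libraries a group and a floor of 3 tags, low genes are not resolved.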
